A study of Danio rerio with 15 samples.

Results

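The Msx and Dlx homeobox genes examined here are msx1a, msx1b, msx2b, msx3 and dlx2a, measured in zebrafish melanoma and skin. These 5 genes were set by name, with earlier results of these data known. All probe sets whose single gene symbol in the platform annotation was one of these 5 were then taken, whatever their values. This gave 7 probe sets (3 for msx3 and 1 for each other gene) of 15502 tested. The remaining 8 measured genes of the same families, msx2a, dlx1a, dlx2b, dlx3b, dlx4a, dlx4b, dlx5a and dlx6a, had 1 probe set each and serve as comparison.

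The study hybridised total RNA from zebrafish tissue to 15 Affymetrix zebrafish arrays. Melanoma (6 arrays) and adjacent skin (6 arrays, called mutant skin below) came from fish labelled mitf-BRAFV600E;p53-/-, so that every melanoma and every mutant skin piece carried the BRAFV600E transgene, driven by the mitf promoter of pigment cells, as well as the p53-/- genotype. Wild-type skin (3 arrays) came from fish labelled Tu and was cut along the flank. Fish were 4 to 8 months old, and the labels do not say whether each array of a group was a separate fish, so the p-values measure only the spread between these arrays. The comparison of melanoma with mutant skin asks what differs between tumour and neighbouring tissue of one genotype. That of mutant skin with wild-type skin asks what the genotype and the nearness of a tumour change in skin. Strain and body site may differ between these 2 skin groups as well, and cannot be told apart from genotype and nearness.

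Msx proteins are homeodomain transcription factors, the vertebrate relatives of the fruit fly muscle segment homeobox protein, and mostly repress transcription. BMP signalling induces them at the edge of the neural plate, where the neural crest (the source of pigment cells) arises, and they are switched on in growing and regenerating fins. Dlx proteins are the relatives of the fruit fly Distal-less protein. Most Dlx genes sit in the genome as neighbouring pairs that share enhancers. dlx1a and dlx2a form such a pair and work in forebrain interneurons and in the crest cells that fill the pharyngeal arches, while the pairs dlx3b with dlx4b and dlx5a with dlx6a work in placodes, fins, arches and bone. In the RefSeq gene table these 3 pairs are neighbours as well.

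All levels below are the authors' log2 values, each relative to a reference for its probe set that is not stated. Differences between arrays can be read from them, while absolute levels, distance from background and the order of different genes cannot. No member value lay at the floor of the table. Changes are differences of group means in log2 units with standard errors (SE) from one limma fit over all probe sets, and a change was called where the p-value adjusted by the Benjamini-Hochberg method over 15502 probe sets was under 0.05. Each piece of tissue was a mixture, so that fewer cells of a type and less RNA per cell cannot be told apart.

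The arrays did not hold skin and tumour alone. A list of oocyte genes was high (over 3 log2 units above the lowest array) on 7 arrays: mutant skin 1, 2, 4 and 6, wild-type skin 1 and 2, and melanoma 6. The oocyte level, the mean over the list of each value minus its probe set mean, was 4.02 in melanoma 6 and -3.34 to -3.10 in melanomas 1 to 5, and reached 4.71 in mutant skin 6. Melanocyte genes such as mitfa and dct (6 of 15 listed genes were measured) averaged 2.21 to 3.03 in melanomas 1 to 5, 0.08 in melanoma 6, -2.42 to -0.37 in mutant skin and -1.95 to -1.76 in wild-type skin. For the correlations of melanoma 6, each probe set's mean over all arrays was subtracted. Over all probe sets melanoma 6 correlated with mutant skin 6 at r = 0.855 and with the other melanomas at r = -0.45 to -0.35. Results are therefore also given, where stated, without the 7 arrays, which leaves 5 melanomas, mutant skin 3 and 5, and wild-type skin 3, an array that is then assumed to vary like the other groups.

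Among the members, dlx2a was high in most melanomas, and the Msx genes were not called in any comparison. Of the 7 probe sets, 1 was called in melanoma against mutant skin and it rose, where 6.44% of all probe sets rose and 4.35% fell. The same probe set was the 1 called in melanoma against wild-type skin, where 7.46% of all probe sets rose and 6.36% fell. In mutant skin against wild-type skin, 0 of 7 were called by limma, 1 had an unadjusted p under 0.05, and the background was 0.0258% raised and 0.168% lowered (0.194% in either direction). Both melanoma comparisons use the same melanoma arrays. One call among 7 probe sets is close to the share called over the whole table, which was 10.8% and 13.8% in either direction.

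dlx2a is a mark of migrating cranial crest cells in the zebrafish embryo and is needed in pharyngeal arch development. Its levels in melanomas 1 to 6 were 3.13, 1.29, -2.92, 3.96, 3.89 and -0.19. In mutant skin 1 to 6 they were -3.20, -2.76, -2.99, -0.85, 0.68 and -3.64, and in wild-type skin 1 to 3 they were -3.08, -2.85 and -2.06. Melanomas 1, 2, 4 and 5 therefore lay above every skin array, melanoma 6 lay between mutant skin 4 and 5, and melanoma 3 lay among the low skin arrays. The groups overlapped, here and for all 7 member probe sets in each comparison (0 of 7 separated). Over all probe sets melanoma lay wholly above mutant skin for 1.4% and wholly below for 0.961%, and wholly above wild-type skin for 7.59% and wholly below for 8.37%. Mutant skin lay wholly above wild-type skin for 1.5% and wholly below for 1.61%.

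The mean dlx2a level was 1.53 ± 2.72 (SD, n = 6) in melanoma, -2.13 ± 1.68 (SD, n = 6) in mutant skin and -2.67 ± 0.54 (SD, n = 3) in wild-type skin. The order was melanoma, mutant skin, wild-type skin, and the last pair did not differ beyond their spread (0.54 ± 1.34 SE, adjusted p = 0.99 from limma). dlx2a rose by 3.65 ± 1.09 (SE) in melanoma against mutant skin, which is 12.6-fold, with a 95% interval of 1.32 to 5.99 and an adjusted p of 0.0447. Against wild-type skin it rose by 4.19 ± 1.34 (SE), which is 18.3-fold, with a 95% interval of 1.34 to 7.05 and an adjusted p of 0.049995. Both adjusted p-values lie at the edge of the threshold.

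**Figure D1:**
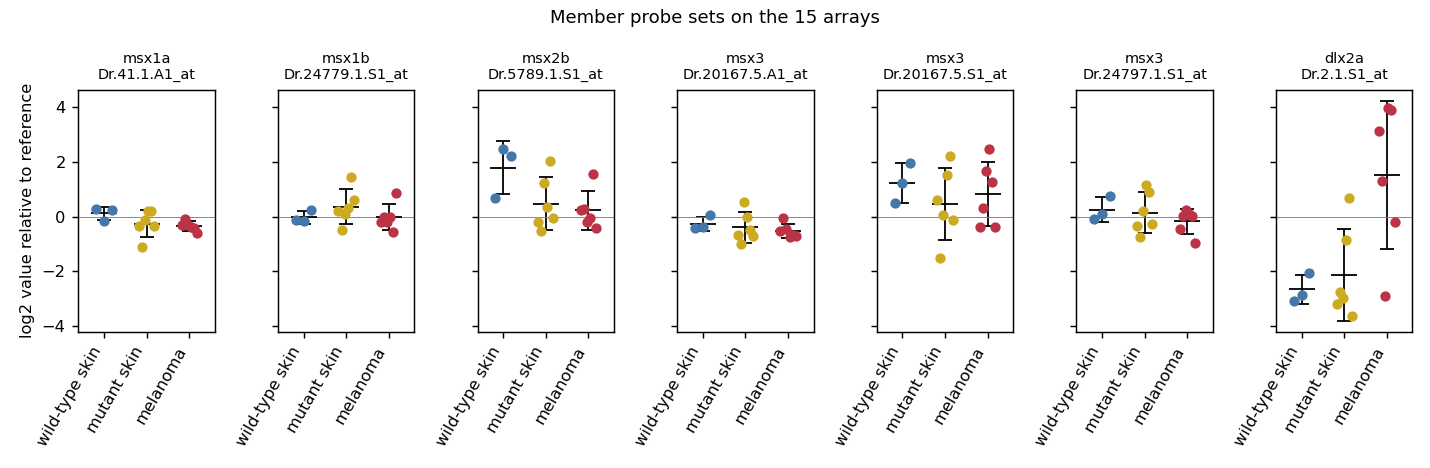
Deposited log2 level, relative to a reference per probe set, of each of the 7 member probe sets on the 15 arrays. Each point is 1 array, and the bars are the group mean and SD; the msx3 panels run A1, S1 and the transcript probe set described further on. dlx2a spans -2.92 to 3.96 in melanoma, with 4 of 6 melanomas above every skin array, while the groups overlap for all 7 probe sets.

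The call for dlx2a, at the edge of the threshold, was lost in most alternatives. The change was positive in all 25 alternative fits of melanoma against mutant skin, between 2.68 and 4.79, but the adjusted p was under 0.05 in 8 of them and went up to 0.447. Leaving out any single array other than mutant skin 5, melanoma 3 or melanoma 6 ended the call. Changes were 3.17 to 4.55 over the 15 fits that each leave out 1 array, with adjusted p-values up to 0.107 from limma. Wild-type arrays enter this comparison through the shared estimate of the spread and the adjustment, not through the change itself. With the 7 arrays rich in oocyte transcripts left out the change was 3.03 (adjusted p = 0.292), and with the oocyte level as a covariate it was 2.73 (adjusted p = 0.110). In melanoma against wild-type skin the call was lost in 17 of 25 alternatives, with changes of 3.25 to 5.27 and an adjusted p of up to 0.389. Without the 7 arrays the change there was 3.93 (adjusted p = 0.279), with 1 wild-type array left.

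**Figure D2:**
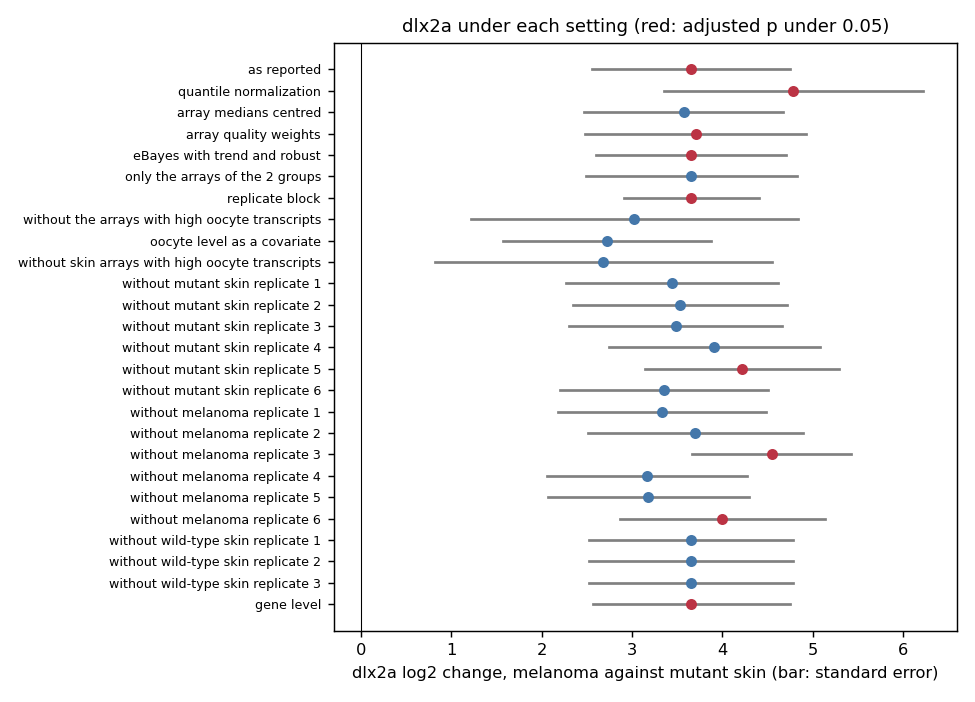
Log2 change of dlx2a in melanoma against mutant skin as reported and under each of the 25 alternatives, with the SE as a bar. Every point lies right of 0, from 2.68 to 4.79, and 9 of the 26 points, the reported one included, have an adjusted p under 0.05 (red).

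dlx2a varied widely among tumours. Its SD over the 6 melanomas was larger than that of 98.4% of all probe sets, whose median SD was 0.60, and its SD over the 6 mutant skin arrays was larger than that of 90.1%. msx1a stood at the other end, with a melanoma SD smaller than all but 3.61% of probe sets. The melanoma with the low dlx2a level, melanoma 3, had a melanocyte level of 2.85, within the range of the 4 melanomas with high dlx2a (2.21 to 3.03). Melanoma 6 had both a middle dlx2a level (-0.19) and the lowest melanocyte level (0.08). Mutant skin 5 and 4, the skin arrays with the most dlx2a, had melanocyte levels of -0.91 and -1.68. Among the skin arrays only mutant skin 2 had a higher melanocyte level than mutant skin 5, at -0.37, with a dlx2a level of -2.76. The part of tumour content in the dlx2a levels was not tested.

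dlx1a, the genomic neighbour of dlx2a, was high in only part of the melanomas with high dlx2a. It stood at 2.15 in melanoma 1 and 3.99 in melanoma 4, while melanomas 2, 3, 5 and 6 read -0.95, -1.10, -0.48 and -1.08. All skin arrays lay between -1.62 and -0.29. Melanoma 5 thus combined a dlx2a level of 3.89 with a dlx1a level inside the skin range. The mean dlx1a change in melanoma against mutant skin was 1.33 ± 0.76 (SE), with a 95% interval of -0.29 to 2.95 and an adjusted p of 0.301 from limma. Without the 7 arrays it was 1.08 (adjusted p = 0.617). Across the 15 arrays dlx1a and dlx2a correlated at r = 0.706, a description of arrays that share their group structure and 2 tumours with high values of both.

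**Figure D3:**
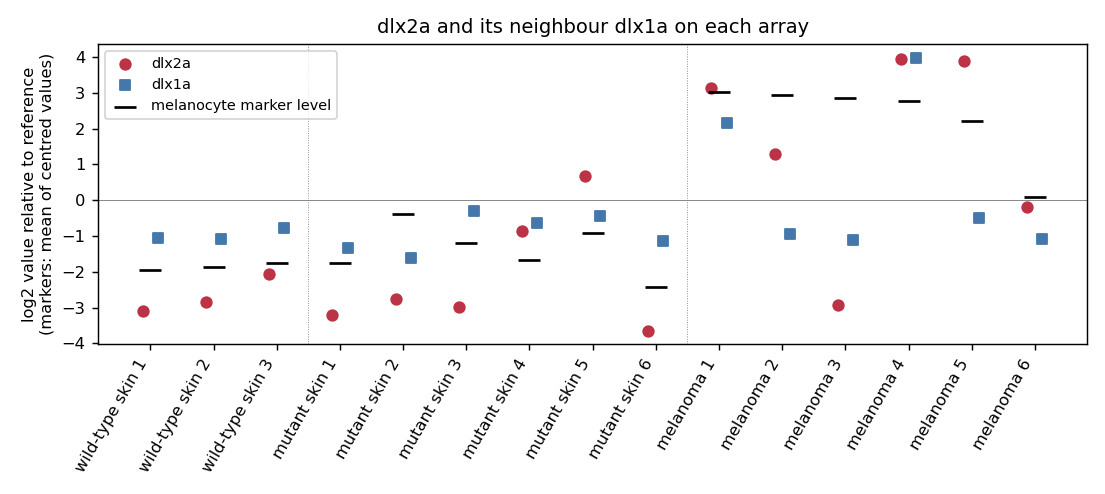
Deposited log2 levels of dlx2a (red points) and dlx1a (blue squares) on each array, with the arrays along the horizontal axis. Black dashes give the melanocyte level of each array, the mean over the melanocyte list of each value minus its probe set mean. Melanoma 1 and 4 are high for both genes, melanoma 2 and 5 for dlx2a only, and dlx1a of the other arrays stays between -1.62 and -0.29.

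dlx1a and dlx2a are also active in forebrain interneurons, so the neuron and glia list (12 of 16 listed genes, dlx1a among them) was read beside them. Its level was -0.29 to 0.10 in melanoma, -0.80 to 0.24 in mutant skin and 0.38 to 1.28 in wild-type skin. Of its 15 probe sets, 2 rose in melanoma relative to mutant skin and 1 fell, beside 6.44% and 4.35% of all probe sets. The synaptic genes sypa and snap25b rose by 3.83 ± 0.62 (SE, adjusted p = 0.00315, limma) and 2.86 ± 0.68 (SE, adjusted p = 0.0166), and the myelin gene mbpa fell by 4.18 ± 0.90 (SE, adjusted p = 0.0101). Against wild-type skin, 1 of the 15 rose (sypa) and 5 fell (elavl4, gfap, mbpa, snap25a and stmn2a), beside 7.46% and 6.36% of all probe sets. gad1b, which makes the transmitter GABA, read -0.53 to 0.004 in melanoma and -0.83 to 0.29 over the skin arrays. Its relative gad2 read 0.43 in melanoma 1, -1.13 to -0.82 in the other melanomas and -1.295 to -0.45 over the skin arrays. The part of nervous tissue in the dlx2a and dlx1a levels was not tested.

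The Msx genes gave small changes between melanoma and mutant skin. Over the 6 Msx member probe sets the changes ran from -0.37 to 0.36, with adjusted p-values of 0.516 to 0.871. Their 95% intervals together span -1.25 to 1.70, so the more variable ones leave room for changes of over 1 log2 unit. With the 7 oocyte-rich arrays left out, 0 of the 7 member probe sets were called by limma in melanoma against mutant skin. Under that setting the background for melanoma against mutant skin was 9.26% raised and 9.79% lowered, more than on all arrays.

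msx1a is the zebrafish gene msxe of the older literature. Its levels were -0.31, -0.08, -0.30, -0.38, -0.43 and -0.59 in melanomas 1 to 6. Mutant skin 1 to 6 read -0.34, -1.12, -0.14, 0.22, 0.20 and -0.34, and wild-type skin 1 to 3 read 0.28, -0.16 and 0.23. The melanomas formed a narrow band inside the range of mutant skin. Means were 0.12 ± 0.24 (SD, n = 3) in wild-type skin, -0.25 ± 0.49 (SD, n = 6) in mutant skin and -0.35 ± 0.17 (SD, n = 6) in melanoma, and no neighbours in this order differed beyond their spread. Melanoma differed from mutant skin by -0.10 ± 0.24 (SE, adjusted p = 0.871) and from wild-type skin by -0.46 ± 0.29 (SE, adjusted p = 0.326).

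msx1b, known as msxb, is induced in the regenerating zebrafish fin. Melanomas 1 to 5 read -0.18, -0.00, -0.19, -0.03 and -0.56, and melanoma 6, one of the arrays with oocyte transcripts, read 0.88. Mutant skin 1 to 6 read 0.21, -0.51, 0.11, 0.30, 1.44 and 0.62, and wild-type skin read -0.14, -0.17 and 0.24. The groups overlapped, and mutant skin 5 held the highest level. By mean level mutant skin (0.36 ± 0.64, SD, n = 6) came before melanoma (-0.01 ± 0.48, SD, n = 6) and wild-type skin (-0.02 ± 0.23, SD, n = 3), with no difference beyond the spread. The change in melanoma against mutant skin was -0.37 ± 0.31 (SE, adjusted p = 0.516), and against wild-type skin it was 0.01 ± 0.38 (SE, adjusted p = 0.991), with a 95% interval of -0.81 to 0.83.

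msx2b, the former msxd, was the Msx gene with the largest mean differences. Wild-type skin 1 to 3 read 0.68, 2.46 and 2.22. Mutant skin 1 to 6 read -0.21, -0.53, 1.21, 0.34, 2.04 and -0.04, and melanomas 1 to 6 read 0.24, 0.28, -0.20, -0.06, 1.57 and -0.43. In both BRAFV600E groups most arrays lay below all wild-type arrays, and the exceptions were mutant skin 3 and 5 and melanoma 5. The means were 1.79 ± 0.96 (SD, n = 3), 0.47 ± 0.97 (SD, n = 6) and 0.23 ± 0.71 (SD, n = 6) in the order wild-type skin, mutant skin, melanoma.

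None of the msx2b differences was called. Melanoma differed from wild-type skin by -1.55 ± 0.59 (SE), with a 95% interval of -2.81 to -0.30, an unadjusted p of 0.0183 and an adjusted p of 0.0942. Mutant skin differed from wild-type skin by -1.32 ± 0.59 (SE), with an unadjusted p of 0.0398 and an adjusted p of 0.640. Without the 7 arrays rich in oocyte transcripts, which leaves 1 wild-type array, mutant skin differed from wild-type skin by only -0.60. Melanoma differed from wild-type skin by -1.86 in that setting. The difference of melanoma from wild-type skin was negative in 25 of 25 alternatives (-2.24 to -1.22) and past the threshold in 4 of them, with adjusted p-values from 5.75e-05 to 0.335. The 4 were array quality weights (-2.05), the replicate number as a block (-1.77), the oocyte level as a covariate (-2.24) and leaving out wild-type skin 1 (-2.11). The block joins wild-type arrays with arrays of the same number from other fish, so it pairs nothing here. The lowest adjusted p came from the weights, a fit that stopped before convergence. Over all probe sets that fit gave 8548 calls and the covariate fit 4344, beside 2143 as reported.

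msx3, once called msxc, has a mouse counterpart that is expressed in the dorsal neural tube. Its 3 probe sets are given separately, since they differed in pattern. The first, whose target is a RefSeq transcript of msx3 (called the transcript probe set), read -0.46, 0.01, 0.23, 0.09, 0.02 and -0.95 in melanomas 1 to 6. Mutant skin 1 to 6 read -0.36, -0.75, 0.21, 1.14, 0.91 and -0.28, and wild-type skin read -0.09, 0.11 and 0.76. By mean level wild-type skin (0.26 ± 0.44, SD, n = 3) came before mutant skin (0.15 ± 0.75, SD, n = 6) and melanoma (-0.18 ± 0.44, SD, n = 6). The ranges overlapped throughout, and the change in melanoma against mutant skin was -0.32 ± 0.34 (SE, adjusted p = 0.638).

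The other msx3 probe sets, called S1 and A1 here, changed by 0.36 ± 0.63 (SE, adjusted p = 0.807) and -0.13 ± 0.26 (SE, adjusted p = 0.836). S1 was the more variable one, with -0.37, 0.33, 1.66, 2.47, 1.25 and -0.39 in melanomas 1 to 6 against -1.50 to 2.21 in mutant skin and 0.50 to 1.95 in wild-type skin. A1 ranged only from -0.75 to -0.06 in melanoma, -0.998 to 0.52 in mutant skin and -0.43 to 0.04 in wild-type skin. Across the 15 arrays these probe sets correlated with each other at r = 0.208, and with the transcript probe set at r = 0.770 and 0.576. S1 and A1 carry one cluster number in their names, which is shared by 8 probe sets annotated to 5 different genes, among them rps24, elavl3, tnn and rnaseh2c, so that their link to msx3 rests on the annotation alone. A1 correlated with 1 tnn probe set of that number at r = 0.856 and with 1 elavl3 probe set at 0.828, higher than with the transcript probe set. With the others of that number it correlated at 0.185 to 0.664. The mean of the 3 msx3 probe sets, A1 and S1 included, changed by -0.03 ± 0.36 (SE, adjusted p = 0.966 over genes).

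**Figure D4:**
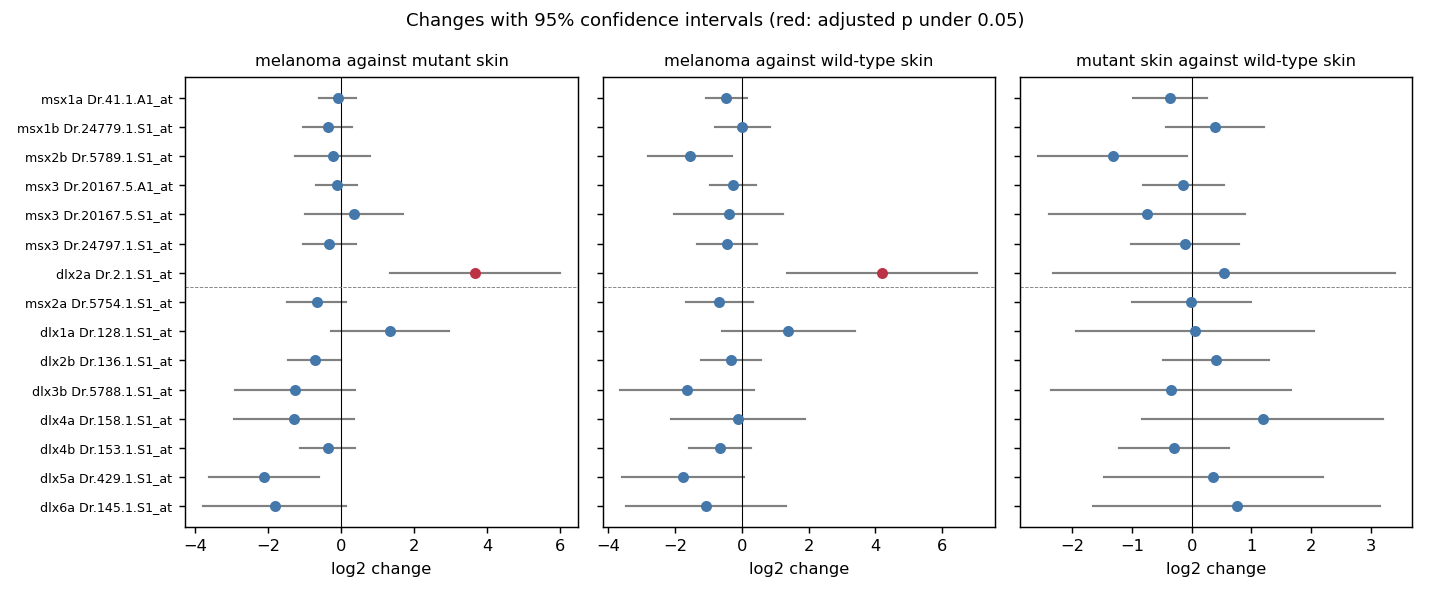
Log2 change with its 95% interval for the 7 member probe sets and the 8 other Msx and Dlx probe sets in the melanoma comparisons and in mutant against wild-type skin. dlx2a lies at 3.65 and 4.19 in the melanoma comparisons, and 7 of the 8 other genes lie below 0 in melanoma against mutant skin.

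Of the 8 other Msx and Dlx genes, 0 were called in melanoma against mutant skin by limma, 2 had an unadjusted p under 0.05, and 7 had a negative change, with a median of -1.002 beside 0.003 over all probe sets. That median was not tested.

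dlx5a, a gene of arches, fins and bone-forming cells, had the smallest p among them. It read -0.56, -0.64, -0.30, -0.53, -0.92 and -0.63 in melanomas 1 to 6 and 0.62, 1.14 and 1.71 in wild-type skin, with no overlap between these groups, as for 8.37% of all probe sets with melanoma lower. In mutant skin 1 to 6 it read 2.01, -1.40, 2.91, 2.15, 3.81 and -0.36, and mutant skin 2 and 6, with the highest oocyte levels among mutant skin, were the low ones. The change in melanoma against mutant skin was -2.12 ± 0.70 (SE, unadjusted p = 0.00873, adjusted p = 0.0675), and in melanoma against wild-type skin it was -1.75 ± 0.86 (SE, adjusted p = 0.201).

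When the 7 arrays rich in oocyte transcripts were left out, 4 of the 8 genes fell in melanoma against mutant skin, beside 9.79% of all probe sets. Melanoma is then compared with 2 skin arrays only, mutant skin 3 and 5. These held the highest mutant skin values of dlx5a (2.91 and 3.81) and dlx3b (2.68 and 3.18). Mutant skin 5 was also the highest mutant skin array for msx2a and dlx4b. dlx5a fell by 3.95 (adjusted p = 0.000191). dlx3b, a gene of placodes and fins, fell by 3.12 (adjusted p = 0.0115). msx2a, a gene of fins and the skeleton, fell by 1.48 (adjusted p = 0.0113) and dlx4b fell by 1.14 (adjusted p = 0.0199). With the oocyte level as a covariate, dlx5a, dlx3b, msx2a and dlx2b fell, beside 2917 calls over all probe sets, and dlx4b was not called. On all arrays the differences were -1.28 ± 0.77 (SE, adjusted p = 0.329) for dlx3b, -0.67 ± 0.38 (SE, adjusted p = 0.297) for msx2a and -0.37 ± 0.35 (SE, adjusted p = 0.589) for dlx4b. Mutant skin 2 read lowest of all mutant skin arrays for each of these genes. Its keratinocyte level was -1.66, against -0.43 to 1.97 in the other mutant skin arrays.

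Markers of other tissues also differed between the groups. The keratinocyte level was -2.71 to -0.64 in melanoma, -1.66 to 1.97 in mutant skin and 0.48 to 1.86 in wild-type skin. Of its 25 probe sets, 8 fell in melanoma relative to mutant skin, beside 4.35% of all probe sets. The bone, scale and tooth list holds dlx5a. It was at -1.57 to 0.54 in melanoma, -0.41 to 0.92 in mutant skin and 0.54 to 0.72 in wild-type skin. On all arrays 1 of its 21 probe sets (runx3) rose in melanoma relative to mutant skin and 0 fell. Without the 7 arrays rich in oocyte transcripts, 10 fell, dlx5a included, and 2 rose (both runx3), with a median change of -2.04. In that setting 20 of 25 keratinocyte probe sets fell, beside 9.79% of all probe sets. The skeletal muscle list (16 of 20 listed genes) had the widest range of these lists, at -4.84 to 0.97 in melanoma, -0.01 to 2.90 in mutant skin and 2.32 to 3.38 in wild-type skin. On all arrays 16 of its 18 probe sets fell in melanoma against mutant skin, with a median change of -5.90. Mutant skin 2 held the lowest muscle level among mutant skin and melanoma 6 the highest among melanomas. The part of these tissues in the lower dlx5a, dlx3b and msx2a values was not tested.

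dlx6a, the neighbour of dlx5a, did not follow it. Its highest readings were 4.27 in mutant skin 2, 3.97 in mutant skin 6, 2.36 in wild-type skin 1 and 1.03 in melanoma 6, the 4 arrays with the highest oocyte levels. All other arrays read -1.11 to 0.72. The change of -1.82 ± 0.92 (SE, adjusted p = 0.234) in melanoma against mutant skin became -0.24 (adjusted p = 0.589) without the 7 arrays rich in oocyte transcripts. It was 0.09 when only the skin arrays with high oocyte transcripts were left out and melanoma 6 was kept.

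**Figure D5:**
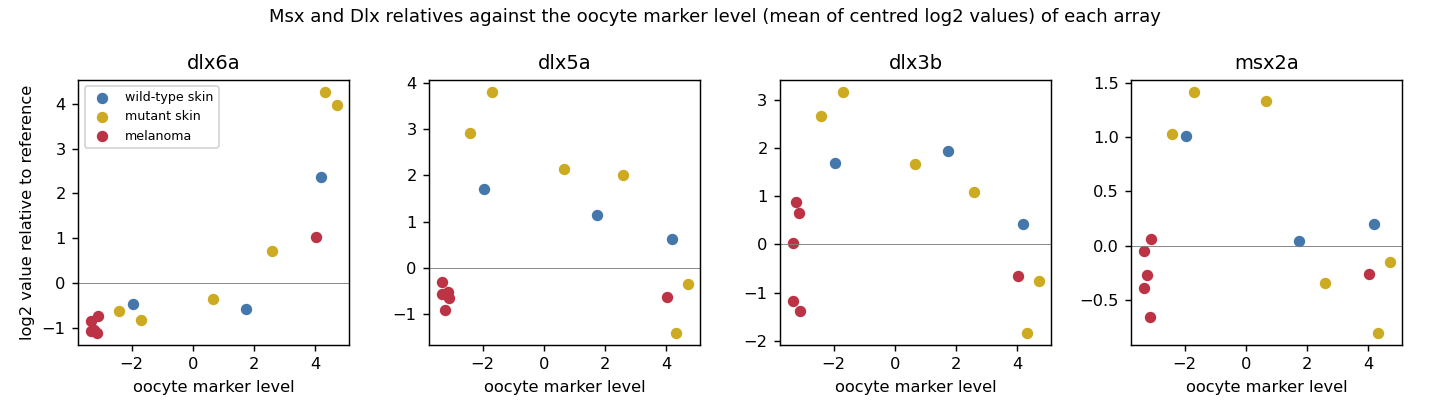
Deposited log2 levels of dlx6a, dlx5a, dlx3b and msx2a on each array (each panel with its own vertical scale) against the oocyte level of that array (mean log2 deviation over the oocyte list). dlx6a is highest, 1.03 to 4.27, on the 4 arrays with an oocyte level above 4, and dlx5a of melanoma stays between -0.92 and -0.30 at every oocyte level.

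The remaining relatives were not called on all arrays. dlx4a read 4.37 in mutant skin 3 and 0.60 in melanoma 3, against -1.22 to -0.89 in the other melanomas, and its change was -1.30 ± 0.77 (SE, adjusted p = 0.320). dlx2b, the second copy of the ancestral dlx2 gene, differed by -0.73 ± 0.34 (SE, unadjusted p = 0.0487, adjusted p = 0.192), opposite in sign to dlx2a. It was past the threshold in 3 of 24 alternatives: quantile normalization (-0.94, adjusted p = 0.0356), array quality weights (-0.88, adjusted p = 0.0264) and the oocyte level as a covariate (-1.04, adjusted p = 0.0499).

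Msx and Dlx genes respond to BMP signalling, so the pathway was read from upstream to downstream. Of 17 probe sets of BMP ligands, receptors and Smads (14 of 25 listed genes), 1 was called in melanoma against mutant skin and it rose, and their median change was -0.09 beside 0.003 over all probe sets. The one that rose was gdf6a, a BMP ligand known for its role in the dorsal eye. It read 4.33, 4.57, 3.42, 5.05, 5.29 and 0.71 in melanomas 1 to 6 and -1.64 to 1.79 in mutant skin. Melanomas 1 to 5 lay above every mutant skin array, and melanoma 3, with low dlx2a, was among them. gdf6a rose by 4.39 ± 0.74 (SE, adjusted p = 0.00341), and by 5.51 without the 7 arrays (adjusted p = 0.000442). In that setting 2 probe sets of the list rose (gdf6a and the receptor gene acvr1l) and 2 fell (the ligand genes bmp2a and bmp2b), beside 9.26% and 9.79% of all probe sets. With the oocyte level as a covariate, gdf6a and smad5 rose and 4 ligand genes fell (bmp2a, bmp2b, bmp4 and bmp6), beside 2917 calls among all 15502 probe sets.

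Of 14 probe sets of BMP antagonists (12 of 21 listed genes), 0 rose and 3 fell, beside 6.44% and 4.35% of all probe sets. Their median change was -0.34. sost, a secreted factor of bone cells that was counted in this list, fell by 2.82 ± 0.64 (SE, adjusted p = 0.0129). Whether it acts on BMP signalling in these tissues was not tested. The inhibitory Smad smad6a fell by 1.19 ± 0.30 (SE, adjusted p = 0.0201). Follistatin fsta, which binds activins and BMPs, fell by 1.81 ± 0.52 (SE, adjusted p = 0.0386), a call that was lost in 10 of the 15 fits without 1 array (adjusted p up to 0.0881). Without the 7 oocyte-rich arrays, 4 of the 14 antagonist probe sets fell (sost, smad6a and both of fsta) and 0 rose. In that setting 9.79% of all probe sets fell and 9.26% rose.

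The Id genes, direct BMP targets that block differentiation factors, gave no call on all arrays: 0 of 6 probe sets passed in limma, and no list member had an unadjusted p below that of id2b (0.0503), at -0.90 ± 0.42 (SE, adjusted p = 0.197). Their median change was -0.59. Without the 7 arrays id2b fell by 1.95 (adjusted p = 0.0173).

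Regulators of the neural plate border and crest cover the setting in which Msx genes act in embryos. Of 37 probe sets (24 of 32 listed genes), 11 rose in melanoma relative to mutant skin and 1 fell, beside 6.44% and 4.35% of all probe sets. Their median change was 0.07. The crest and pigment cell factor sox10 rose by 4.32 ± 0.56 (SE, adjusted p = 0.00137), and the crest mark crestin rose by 4.59 ± 0.81 (SE, adjusted p = 0.00405). Both probe sets of the growth regulator mycn rose, by 4.80 ± 0.70 (SE, adjusted p = 0.00205) and 4.48 ± 0.66 (SE, adjusted p = 0.00221). zic1, a neural plate factor, was the one that fell. Without the 7 arrays, 10 rose and 3 fell, beside 9.26% and 9.79% of all probe sets, and the median was -0.07. Melanocyte genes were higher on the same melanoma arrays, and the part of pigment cell content in these changes was not tested.

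Of 24 probe sets of pharyngeal arch and fin regulators (22 of 31 listed genes), where Dlx genes act, 0 rose and 1 fell. The shares over all probe sets were 6.44% and 4.35%, and the median change of the list was -0.29. The one that fell was meis1a, a homeobox partner of Hox proteins, by 1.72 ± 0.46 (SE, adjusted p = 0.0294), a call lost in 9 of the 15 fits without 1 array (adjusted p up to 0.0617). Without the 7 arrays, 5 of the 24 probe sets fell, beside 9.79% of all probe sets: both of meis1a and those of meis2a, edn1 and fgf10a. In melanoma against wild-type skin, 7.46% of all probe sets rose and 6.36% fell. There 1 of 17 probe sets of BMP ligands, receptors and Smads rose, and 2 of 14 antagonist probe sets fell. Of 37 probe sets of crest regulators 7 rose and 1 fell, and of 24 for arch and fin regulators 3 fell. In mutant skin against wild-type skin, 0 probe sets of these lists were called except zic1, which fell.

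The genes with the most similar pattern over the 15 arrays were listed for each member by Pearson's r, as a description of arrays that share their groups, tissue content and processing. For dlx2a they were ppiab (r = 0.928), a cyclophilin, the histidine tRNA synthetase hars (0.908), the neutral amino acid transporter slc1a4 (0.8999), pa2g4a (0.897) and the matrix protein spon2a (0.896). No Msx or Dlx gene was among them. Of these, slc1a4 and spon2a themselves rose in melanoma against mutant skin, by 3.10 ± 0.78 (SE, adjusted p = 0.0214) and 3.10 ± 0.78 (SE, adjusted p = 0.0206).

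For msx2b the most similar genes were eif3jb (r = 0.931), ndufb6, tpd52l2b, aimp1a and mcmdc2as. For msx1b they were apoc1 (0.853), fabp7a, si:dkey-7c18.24, tmem45a and shbg. For msx1a they were cyp3a65 (0.922), adcyap1a, the BMP family ligand gdf7, prmt8b and the guidance cue ntn1b. msx1a also followed the array medians (r = 0.774), which ran from -0.55 to 0.10.

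The msx3 probe sets had separate companions. The transcript probe set was most similar to tmem106ba (0.899), nt5c2a, pnrc2, cav1 and btg2. S1 was most similar to yap1 (0.911), cst3, fundc2, nr4a2b and eif4a1b. A1 was most similar to stk33 (0.993), tshz1, uts2a, pcdh1a6 and proca, and 536 probe sets (3.46% of all) exceeded r = 0.9 with it. It also correlated with the array medians at r = 0.824, against 0.723 for the transcript probe set and 0.561 for S1. For msx2b, dlx2a and msx1b that correlation was 0.515, 0.158 and 0.012.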

How the data were processed

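Total RNA of 15 tissue samples was measured on Affymetrix zebrafish arrays, with groups taken from the titles. The authors deposited 1 table of log2 values made with GCRMA, a background correction and normalization, per the submitters' processing notes; no version is given in the sources used here. The values take both signs, relative to an unstated reference per probe set, and 85 values of the tested probe sets lie at a floor of -6.64, the log2 of 0.01. Of 15617 probe sets, 115 controls were left out. Of the 15502 tested, 10795 carried 1 gene symbol in the platform annotation, 135 several and 4572 none; 10711 IDs were found in RefSeq's gene table, and 1 symbol was updated from it. No filter was applied, since the signal over background is unknown. The number of arrays limits the precision.

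In limma 3.58.1 (R 4.3.3), lmFit and eBayes fitted 1 mean per group over 15 arrays, with 3 two-sided contrasts and Benjamini-Hochberg adjustment over all tested probe sets. The fit was tested on simulated data. Figures used matplotlib 3.10.9 in Python 3.11.15. The members, gene lists, tests and alternatives were chosen with earlier results of these data known. All member probe sets and all other Msx and Dlx genes were described. From the BMP, Id, crest, arch and fin, neuron and glia, and bone lists, up to 4 probe sets called in melanoma against mutant skin were named. They were those with the smallest adjusted p, or the 1 with the smallest p where none was called. The melanocyte, oocyte, keratinocyte and muscle lists were given as levels or counts. A cartilage list was also read: 1 of 18 probe sets rose (col9a2, 5.35 ± 0.86 SE, adjusted p = 0.00287 from limma) and 0 fell, beside 6.44% and 4.35% of all probe sets. For each member the 5 most correlated genes were named. The genes zic1, gad1b, gad2, those called among neuron and glia genes against wild-type skin, and those named for calls without the 7 arrays were chosen after their values were seen. The alternatives were other scalings, weights, eBayes options and models, arrays left out, a 2-fold minimum and gene-level means.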

Additional observations from a re-analysis of the deposited data

Results flagged for a closer look

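Over the 15 Msx and Dlx probe sets, the 30 groups of 6 arrays (melanoma and mutant skin) were searched for 1 array far from the others by Dixon's test, in which chance picks about 1 group in 20. It picked 3, all in melanoma. msx2b was 1.57 in melanoma 5 and -0.43 to 0.28 in the other melanomas. dlx6a was 1.03 in melanoma 6, an array with oocyte transcripts, and -1.11 to -0.73 in the others. dlx4a was 0.601 in melanoma 3, the melanoma with low dlx2a, and -1.22 to -0.89 in the others.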

How the results depend on the processing

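Over all probe sets, melanoma against mutant skin gave 1673 calls, 4300 with array quality weights (a fit that stopped before convergence), 2954 without the 7 arrays with high oocyte transcripts, 2917 with the oocyte level as a covariate and 987 to 3101 when 1 array was left out. Melanoma against wild-type skin gave 2143 calls, 8548 with weights, 4344 with the covariate, 1427 without the skin arrays with high oocyte transcripts and 848 to 3097 without 1 array. Mutant against wild-type skin gave 30 calls, 1919 with weights, 12 with only the arrays of the 2 groups or at gene level, 47 without the 7 arrays, 116 with the covariate and 15 to 54 without 1 array.

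Member calls in melanoma against mutant skin went from 1 to 0 with array medians centred, with only the 2 groups, without the 7 arrays, with the covariate and without the skin arrays with high oocyte transcripts, and were 0 to 1 without 1 array. In melanoma against wild-type skin they went from 1 to 0 with quantile normalization, with only the 2 groups, without the 7 arrays and without the skin arrays with high oocyte transcripts, to 2 with weights (dlx2a, msx2b), and to 2 with the covariate (msx2b and msx3, not dlx2a), and were 0 to 1 without 1 array. In mutant against wild-type skin they went from 0 to 1 with weights (msx2b) and were 0 to 0 without 1 array. dlx5a was past the threshold in 9 of 24 alternatives.

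Equal title numbers were not taken as pairs, since the labels do not say what a number marks. With group means subtracted, same-numbered melanoma and mutant skin correlated at 0.0923, -0.0748, 0.447, 0.202, 0.386 and 0.696. For numbers 3, 5 and 6 the same-numbered array correlated highest among the 6 mutant skin arrays. For numbers 1, 2 and 4 another mutant skin array did, at 0.286, 0.307 and 0.498. With the replicate number as a block, dlx2a kept its change of 3.65 in melanoma against mutant skin (adjusted p = 0.00975 from limma). All probe sets gave 2452 calls there. The block also joins wild-type skin, from Tu fish, with the melanoma and mutant skin arrays of the same number. Those came from fish of another genotype, so equal numbers cannot mark the same fish in comparisons with wild-type skin. In that fit, member calls were 2 in melanoma against wild-type skin (dlx2a and msx2b), and msx1b turned to -0.26. In mutant against wild-type skin dlx2a turned to -0.40.

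Other signs turned only in changes that were never called. In melanoma against mutant skin dlx6a became 0.091 without the skin arrays with high oocyte transcripts, msx3 S1 became -0.075 without the 7 arrays, -0.43 with the covariate, -0.32 without those skin arrays and -0.036 to 0.71 without 1 array, msx3 A1 -0.25 to 0.054 and msx2b -0.50 to 0.081 without 1 array. In melanoma against wild-type skin msx3 S1 became 0.12 with quantile normalization, and msx1b -0.015 with weights, -0.44 without the 7 arrays, -0.26 without the skin arrays and -0.17 to 0.14 without 1 array. In mutant against wild-type skin msx3 A1 became 0.0071 with medians centred, 0.026 with weights and -0.32 to 0.0069 without 1 array, the msx3 transcript probe set 0.056 with quantile normalization, 0.034 with medians centred, 0.19 with weights and -0.31 to 0.13 without 1 array, msx1a 0.042 with weights, and dlx2a -0.023 to 0.84 without 1 array. Centring the array medians moved the median change of all probe sets by 0.15 in mutant against wild-type skin. The cause of these moves was not tested.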
